A study of Homo sapiens with 9 samples.

Results

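NRF2, encoded by NFE2L2, is a transcription factor that switches on genes against oxidative and electrophilic stress. The set described here holds NFE2L2, its inhibitor KEAP1 and 7 genes that NRF2 is known to induce, namely HMOX1, NQO1, GCLC, GCLM, SRXN1, TXNRD1 and ME1. The members were chosen by name, with earlier results of these data known, as the rows of the deposited table with these symbols. All 9 members matched 1 row each among 26475 rows, and all 9 passed the filter on low counts that left 14135 genes. The 9 RNA-seq libraries came from MDA-MB-231, an invasive human breast cancer line that lacks oestrogen and progesterone receptors and HER2 amplification. The groups were cells stably transduced with empty pLKO.1 (control, 3 libraries), cells stably transduced with pLKO.1-shACSL4 (knockdown, 3 libraries), and the empty-vector control cells given the ACSL4 inhibitor PRGL493 (3 libraries). Every group thus carries the pLKO.1 vector. The labels do not state the number of hairpins or clones, nor the dose, duration or vehicle of the inhibitor. The 3 libraries of a group came from different batches of cells, so the p-values cover the spread between batches and not between separate transductions.

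In resting cells KEAP1 holds NRF2 in the cytoplasm and hands it to the CUL3 ubiquitin ligase for destruction. Oxidants and electrophiles modify cysteines of KEAP1, and NRF2 then enters the nucleus, pairs with a small MAF protein and binds antioxidant response elements. BACH1, a haem-sensing repressor, competes for the same elements. Since NRF2 is controlled mainly as a protein, the RNA of its targets is the usual readout of its activity. The targets make glutathione (GCLC, GCLM), keep thioredoxin and peroxiredoxin reduced (TXNRD1, SRXN1), reduce quinones (NQO1), break down haem (HMOX1) and supply NADPH (ME1).

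Library totals lay between 28673940 and 43027217 counts. Levels are given as CPM, counts scaled to a common depth with TMM factors, and differences as log2 ratios (log2 fold changes) with their standard error (SE) from edgeR's quasi-likelihood test. A gene was called when its p adjusted over all genes tested (Benjamini-Hochberg) was below 0.05. ACSL4, the targeted gene, was at 342, 339 and 366 CPM in control, 29.5, 23.7 and 27.6 CPM in knockdown and 333, 350 and 360 CPM in PRGL493 libraries. The targeted gene was thus low in every library labelled as knockdown and in no other. In bulk RNA, fewer cells of a kind and less RNA per cell cannot be told apart. Markers of the line were high in every library (VIM from 1611 to 1811 CPM), and ESR1 and PGR had at most 1 and 6 counts. ERBB2 was at 68.1 to 104 CPM. Markers of other cell types were mixed. No erythroid marker passed the filter on low counts, and HBB had 0 counts in every library. Of the 5 leukocyte markers CD14 alone passed (602 to 1555 counts), PTPRC had at most 3 counts, and the list's summed level was 24.0 to 28.6 CPM in control, 34.1 to 41.4 in knockdown and 19.8 to 22.4 in PRGL493 libraries. Of the 5 luminal markers 4 passed, with KRT19 at 12661 to 22026, CLDN4 at 7898 to 11248 and EPCAM at 249 to 1330 counts, while FOXA1 had at most 2. Their summed level was 674 to 748, 577 to 710.1 and 814 to 834 CPM in the same order of groups. PECAM1 (43 to 91 counts) and KDR (159 to 357) passed among the 4 endothelial markers, whose sum was 11.2 to 12.3, 8.23 to 9.92 and 7.37 to 8.88 CPM. The part of these markers in the results was not tested. Knockdown replicate 2 stood apart in its length profile. Genes whose longest transcript was at most 2735 bases lay a median of 0.15 on the log2 scale above their mean over all libraries there, and those over 4659 bases at -0.14, against -0.06 to 0.06 in the other libraries.

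The antioxidant response element has the core TGACNNNGC. RefSeq promoter windows (GRCh38.p14, 250 bases before to 50 after a start site) were available for 8 of the 9 members, all but HMOX1, in 11 windows. The core was searched on both strands and found in 5 of the 11 windows, belonging to GCLM, ME1, TXNRD1 and KEAP1. Among all 35116 windows of the same length 13.3% hold it. The 6 matches that lie wholly before the start site of their window are shown. Whether they bear on the responses described below was not tested. Each line gives the gene's strand from 5′ to 3′ with 10 bases on either side, and the capitals mark the core, which reads GCNNNGTCA where it lies on the opposite strand.
GCLM, chr1:93909446-93909474, minus strand: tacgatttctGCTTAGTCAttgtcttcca
ME1, chr6:83431170-83431198, minus strand: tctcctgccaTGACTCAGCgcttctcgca
TXNRD1, first window, chr12:104215670-104215698, plus strand: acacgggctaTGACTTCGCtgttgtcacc
TXNRD1, second window, chr12:104286920-104286948, plus strand: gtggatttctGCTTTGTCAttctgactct
KEAP1, second window, chr19:10502807-10502835, minus strand: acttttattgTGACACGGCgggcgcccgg
KEAP1, second window, chr19:10502784-10502812, minus strand: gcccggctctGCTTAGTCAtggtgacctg
The ME1 match overlaps the AP-1 type motif TGACTCA, which 4.95% of all windows hold and which was found in no other member window. The windows of NFE2L2, GCLC, NQO1 and SRXN1 do not hold the core, which says only that these letters are absent from this stretch. A match is a string of letters and not a measured binding site.

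The members spanned a wide range of levels. Per kilobase of the gene's longest GENCODE transcript, TXNRD1 stood far above the others in control cells at 423 ± 9.79 CPM per kilobase (SD, n = 3), higher than in 99.5% of the genes tested. NFE2L2 (61.4 CPM per kilobase), SRXN1 (55.7) and NQO1 (43.5) followed. KEAP1 was at 21.3, ME1 at 15.5, GCLC at 13.9 to 14.1, GCLM at 13.2 and HMOX1 at 12.5 CPM per kilobase. In control cells no neighbours in this order overlapped between libraries, although the last 3 lay close together (12.3 to 14.1 CPM per kilobase). SRXN1 came after NQO1 by its mean in the knockdown libraries (34.8 to 39.5 against 37.1 to 44.0 CPM per kilobase) and in the PRGL493 libraries (51.8 to 55.3 against 54.2 to 57.3), where both ranges overlapped. GCLC likewise came after GCLM in the knockdown libraries, with overlapping ranges (9.82 to 10.6 against 10.4 to 12.3). The order rests on the transcript length assumed for each gene.

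**Figure D1:**
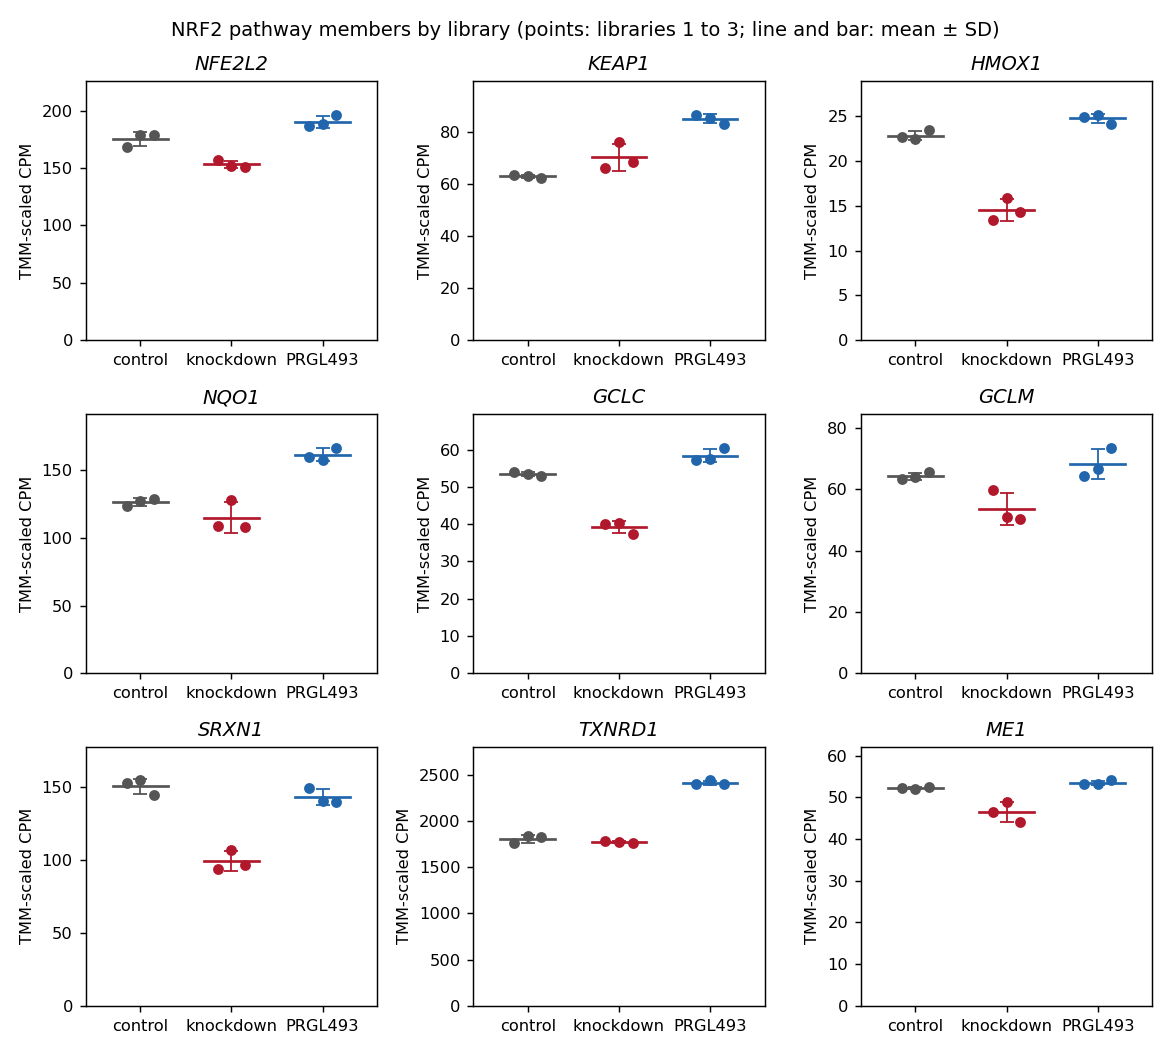
TMM-scaled CPM of the 9 members in each of the 9 libraries, by group, with points for libraries, a line for the mean and a bar for the SD (n = 3). HMOX1, SRXN1 and GCLC lie lower in the knockdown libraries than in both other groups, while TXNRD1, NQO1 and KEAP1 lie higher in the PRGL493 libraries.

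The comparison of knockdown with control asks what loss of the ACSL4 RNA does to the pathway. Of the 9 members 6 fell (HMOX1, SRXN1, GCLC, GCLM, NFE2L2 and ME1), 1 rose (KEAP1) and 2 did not pass the test (NQO1 and TXNRD1). Over all genes tested 15.3% were called lower and 14.7% higher, 30.1% in all. The median log2 ratio was -0.19 over the members and 0.00 over all genes. The libraries of the groups did not overlap for 7 of the 9 members and for 42% of all genes. PRGL493 was set against the same control libraries. There 3 members rose (KEAP1, TXNRD1 and NQO1), 0 fell and 6 did not pass the test, against 21.4% of all genes called higher and 20.4% lower, 41.8% in all. The median was 0.12 over the members and 0.01 over all genes, and 7 of the 9 members did not overlap, against 57.2% of all genes. In the direct comparison all 9 members were lower in knockdown than in PRGL493 cells, with no overlap between the libraries of the groups for any of them, where 26% of all genes were called lower, 50.4% were called in either direction and 56% did not overlap. All 9 of these calls held in each of the 19 alternatives run, whereas several of the small differences from control gained or lost their call in some of them. Because the members were chosen with earlier results of these data known, these counts and medians are descriptive and no independent test of the pathway.

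The regulators come first. NFE2L2 lies on the minus strand of chromosome 2, from 177227595 to 177392697 (GRCh38, GENCODE release 29), and overlaps the protein-coding gene AGPS on the other strand at its 5′ end. Annotated genes on its own strand, among them AC019080.1, MIR3128 and MIR6512, also overlap it, so their reads may be included. NFE2L2 was at 168, 179 and 179 CPM in control libraries 1 to 3, at 157, 152 and 151 CPM in knockdown and at 186, 189 and 196 CPM in PRGL493 libraries. The 3 groups do not overlap, with the knockdown libraries lowest and the PRGL493 libraries highest. In knockdown cells NFE2L2 fell by 12.6% (log2 ratio -0.19, SE 0.05, adjusted p = 0.0064). With PRGL493 it did not pass the test (0.12, SE 0.05, 95% interval 0.02 to 0.22, adjusted p = 0.058), and it was called in 5 of 19 alternatives, among them the fit without knockdown replicate 2, which enters the shared estimate of the spread (0.12, adjusted p = 0.023).

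KEAP1, the adaptor that hands NRF2 to the ligase, lies on the minus strand of chromosome 19 from 10486120 to 10503741. Its level was 63.5, 63.2 and 62.5 CPM in control, 66.4, 76.3 and 68.6 CPM in knockdown and 86.7, 85.6 and 83.3 CPM in PRGL493 libraries. Both treated groups lie above control without overlap, and the knockdown libraries spread most. The rise with PRGL493 was 35.1% (log2 ratio 0.43, SE 0.06, adjusted p = 1.8e-05). The rise in knockdown cells was small (0.16, SE 0.06, adjusted p = 0.048) and was lost in 13 of 19 alternatives. Without knockdown replicate 2, the highest of its group, the value was 0.10 (adjusted p = 0.16). KEAP1 was nevertheless lower in knockdown than in PRGL493 cells (-0.28, SE 0.06, adjusted p = 0.00083).

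GCLC and GCLM encode the catalytic and the modifier subunit of glutamate-cysteine ligase, the rate-limiting enzyme of glutathione synthesis. GCLC (chromosome 6, 53497341 to 53616970, minus strand) was at 53.9, 53.6 and 52.8 CPM in control, 39.9, 40.3 and 37.4 CPM in knockdown and 57.2, 57.6 and 60.6 CPM in PRGL493 libraries. The knockdown libraries form a separate low group. GCLC fell by 26.6% in knockdown cells (log2 ratio -0.45, SE 0.06, adjusted p = 1.8e-05) and did not pass the test with PRGL493 (0.13, SE 0.06, 95% interval 0.01 to 0.25, adjusted p = 0.070). The PRGL493 difference of GCLC was called in 4 of 19 alternatives, among them the fit without knockdown replicate 2 (0.13, adjusted p = 0.036). GCLM (chromosome 1, 93885205 to 93909456, minus strand) was at 63.3, 64.1 and 65.6 CPM in control, 59.8, 50.9 and 50.5 CPM in knockdown and 64.3, 66.7 and 73.7 CPM in PRGL493 libraries. Its knockdown libraries were all below control, replicate 1 by the least, and the PRGL493 libraries overlapped control. GCLM fell in knockdown cells (-0.26, SE 0.07, adjusted p = 0.011), a call lost without knockdown replicate 3 (-0.22, adjusted p = 0.062), and did not pass the test with PRGL493 (0.08, SE 0.07, 95% interval -0.06 to 0.23, adjusted p = 0.35). In 2 of 19 alternatives, both of which take out a trend on transcript length and GC, GCLM was called higher with PRGL493 (0.12, adjusted p = 0.027 without and 0.043 with the replicate block). The catalytic subunit thus had the larger fitted fall of the pair, but the difference between the pair was not tested.

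SRXN1 and TXNRD1 belong to the thioredoxin branch. Sulfiredoxin, encoded by SRXN1, repairs overoxidised peroxiredoxins. SRXN1 (chromosome 20, 646615 to 653370, minus strand) was at 152, 154 and 145 CPM in control, 93.8, 107 and 96.4 CPM in knockdown and 149, 140 and 140 CPM in PRGL493 libraries. The knockdown libraries lie far below both other groups, which overlap each other. SRXN1 fell by 34.2% in knockdown cells (log2 ratio -0.60, SE 0.06, adjusted p = 6.5e-07) and did not pass the test with PRGL493 (-0.07, SE 0.06, 95% interval -0.19 to 0.05, adjusted p = 0.33). In the same 2 alternatives SRXN1 was called lower with PRGL493 (-0.11, adjusted p = 0.018 and 0.027). The annotation places a protein-coding gene on the same strand across SRXN1, AL121758.1, so reads of that gene may be included.

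Thioredoxin reductase 1, encoded by TXNRD1, uses NADPH to reduce thioredoxin and was the most abundant member by counts, with 53776 to 98474 per library. TXNRD1 (chromosome 12, 104215779 to 104350305, plus strand) contains the small gene EID3 on the same strand. It was at 1761, 1837 and 1829 CPM in control, 1787, 1774 and 1763 CPM in knockdown and 2395, 2439 and 2399 CPM in PRGL493 libraries. Knockdown and control overlap, and the PRGL493 libraries stand clear above both. TXNRD1 rose by 33.3% with PRGL493 (log2 ratio 0.41, SE 0.04, adjusted p = 1.2e-06) and did not pass the test in knockdown cells (-0.03, SE 0.04, 95% interval -0.12 to 0.06, adjusted p = 0.67).

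NQO1 encodes a quinone reductase that is widely used as a marker of NRF2 activity. Located on chromosome 16 (69706996 to 69726951, minus strand), NQO1 was at 124, 127 and 129 CPM in control, 109, 128 and 108 CPM in knockdown and 160, 158 and 167 CPM in PRGL493 libraries. The PRGL493 libraries were highest, and 1 knockdown library, replicate 2, reached the control range. NQO1 rose by 27.6% with PRGL493 (log2 ratio 0.35, SE 0.06, adjusted p = 0.00026). In knockdown cells it did not pass the test (-0.14, SE 0.06, adjusted p = 0.10). Without knockdown replicate 2 NQO1 was called lower (-0.22, adjusted p = 0.00089), and the call was also made once a trend on transcript length and GC was taken out (-0.19).

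HMOX1 encodes haem oxygenase 1, which splits haem into biliverdin, iron and carbon monoxide and is repressed by BACH1. It lies on the plus strand of chromosome 22 from 35380361 to 35394214 and was the member with the fewest counts, 559 to 1025 per library. Its level was 22.7, 22.4 and 23.4 CPM in control, 13.4, 15.8 and 14.3 CPM in knockdown and 24.9, 25.1 and 24.1 CPM in PRGL493 libraries. The knockdown libraries lie well below the others. HMOX1 had the largest difference among the members, a fall of 36.5% in knockdown cells (log2 ratio -0.66, SE 0.07, adjusted p = 4.5e-06). The size of this difference exceeded that of 93.0% of all genes tested in that comparison. With PRGL493 it did not pass the test (0.12, SE 0.07, 95% interval -0.03 to 0.27, adjusted p = 0.21), although the libraries of the 2 groups did not overlap.

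ME1 encodes the cytosolic malic enzyme, which makes NADPH. Located on chromosome 6 (83210389 to 83431071, minus strand), ME1 was at 52.1, 52.0 and 52.5 CPM in control, 46.4, 48.9 and 44.0 CPM in knockdown and 53.2, 53.1 and 54.0 CPM in PRGL493 libraries. The knockdown libraries lie lowest, and the PRGL493 libraries lie just above control without overlap. ME1 fell from a mean of 52.2 to 46.4 CPM in knockdown cells (log2 ratio -0.17, SE 0.06, adjusted p = 0.031), a call lost in 9 of 19 alternatives. Without knockdown replicate 3 ME1 had a value of -0.13 (adjusted p = 0.14). The change with PRGL493 did not pass the test (0.03, SE 0.06, 95% interval -0.08 to 0.15, adjusted p = 0.66).

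**Figure D2:**
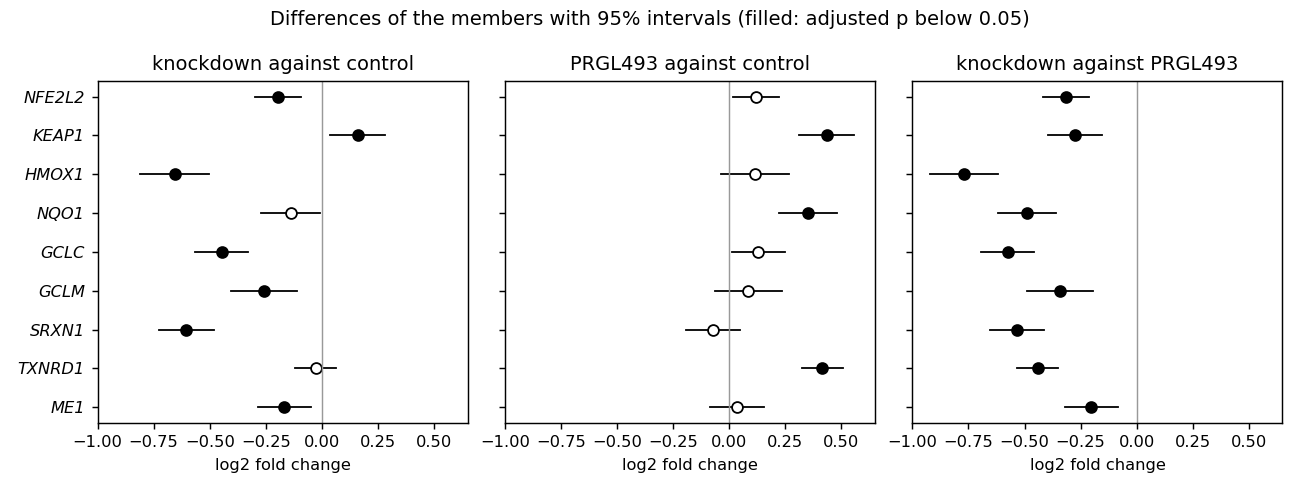
Log2 fold change of each member (points) with its 95% interval (lines) in the 3 comparisons, filled where the adjusted p was below 0.05. Points lie left of 0 for 8 of 9 members in knockdown against control, right of 0 for 8 of 9 in PRGL493 against control, and left of 0 for all 9 in knockdown against PRGL493.

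The direct comparison tests whether the treatments differ. HMOX1 was lower in knockdown than in PRGL493 cells by the most (log2 ratio -0.77, SE 0.07, adjusted p = 2.5e-07), followed by GCLC (-0.57, SE 0.06, adjusted p = 3.5e-07) and SRXN1 (-0.53, SE 0.06, adjusted p = 1.2e-06). NQO1 (-0.49, adjusted p = 6.3e-06) and TXNRD1 (-0.44, adjusted p = 4.0e-07) had differences of similar size. For HMOX1, GCLC and SRXN1 the knockdown moved away from control, and for TXNRD1 the PRGL493 group did. NQO1 rose with PRGL493 (0.35) and lay at -0.14 in knockdown cells, where it did not pass the test. GCLM differed by -0.34 (adjusted p = 0.00065), NFE2L2 by -0.31 (adjusted p = 5.0e-05) and ME1 by -0.20 (adjusted p = 0.0061). The control libraries are not compared here, and enter only through the shared low-count filter, scaling factors and estimate of the spread.

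Other genes of the pathway were taken from 7 lists of 148 genes in all, of which 147 matched a row and 144 were tested. In knockdown cells 26 of the 144 rose and 27 fell, and with PRGL493 39 rose and 32 fell, with medians of 0.02 and 0.03. In all 36.8% and 49.3% of them were called, beside 30.1% and 41.8% of all genes. The 23 regulators of NRF2 had 2 members higher and 7 lower in knockdown cells (median -0.10), and 6 higher and 6 lower with PRGL493 (median 0.05). Glutathione enzymes and cystine import had 8 higher and 5 lower of 29 in knockdown cells, and 7 and 7 with PRGL493. The thioredoxin and peroxiredoxin list had 5 higher and 2 lower of 21, and 5 and 4. NADPH supply had 4 and 2 of 17, and 6 and 4. Haem and iron handling had 1 and 3 of 20, and 6 and 4. Quinone, carbonyl and drug handling had 4 and 5 of 24, and 6 and 2. Superoxide and peroxide removal had 2 and 3 of 10, and 3 and 5. No list moved wholly in 1 direction.

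**Figure D3:**
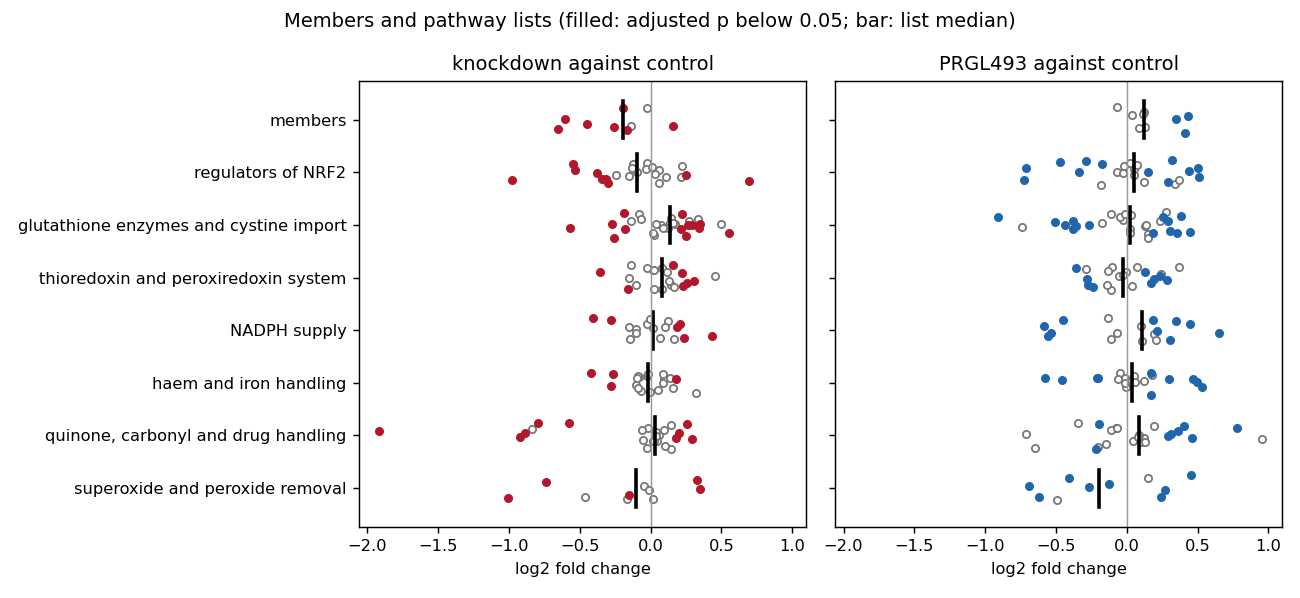
Log2 fold changes of the 9 members and of the tested genes of the 7 pathway lists against control, for knockdown (left) and PRGL493 (right), with filled points where the adjusted p was below 0.05 and a bar at the list's median. The members' medians are -0.19 and 0.12, while each of the lists holds genes on both sides of 0.

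Among the listed regulators of NRF2, DPP3, SQSTM1 and GSK3B had opposite differences under the 2 treatments. DPP3, a peptidase that binds KEAP1 in competition with NRF2, was at 42.1, 41.9 and 42.2 CPM in control, 28.3, 30.2 and 28.6 CPM in knockdown and 63.4, 59.9 and 56.6 CPM in PRGL493 libraries. The 3 groups are fully separate. DPP3 fell in knockdown cells (log2 ratio -0.54, SE 0.06, adjusted p = 5.4e-06), rose with PRGL493 (0.51, SE 0.06, adjusted p = 3.6e-06) and differed between them (-1.05, SE 0.06, adjusted p = 6.2e-10). SQSTM1, or p62, a cargo receptor of autophagy that sequesters KEAP1 and is itself an NRF2 target, was at 565, 538 and 510 CPM in control. It was at 396, 469 and 431 CPM in knockdown and at 767, 786 and 738 CPM in PRGL493 libraries. SQSTM1 too fell in knockdown cells (-0.32, SE 0.06, adjusted p = 0.00093) and rose with PRGL493 (0.51, SE 0.06, adjusted p = 5.2e-06). GSK3B likewise fell in knockdown cells (-0.30, SE 0.07, adjusted p = 0.0041) and rose with PRGL493 (0.32, SE 0.07, adjusted p = 0.0015). CUL3, the scaffold of the ligase, did not pass the test in either (-0.03, adjusted p = 0.76, and 0.05, adjusted p = 0.44).

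The RNAs of BACH1 and of the small MAF proteins fell under both treatments, apart from MAFG, and both comparisons share the control libraries. BACH1 was at 197, 195 and 212 CPM in control, 169, 141 and 155 CPM in knockdown and 141, 145 and 150.5 CPM in PRGL493 libraries. All treated libraries lie below all controls. The log2 fold change of BACH1 was -0.38 (SE 0.06, adjusted p = 0.00027) in knockdown cells and -0.47 (SE 0.06, adjusted p = 1.6e-05) with PRGL493. MAFF fell from 184 ± 8.62 to 126 ± 12.5 CPM and 111 ± 5.36 CPM (SD, n = 3; -0.55 and -0.73, adjusted p = 1.2e-05 and 2.8e-07). MAFK fell by 0.34 and 0.29 on the log2 scale (adjusted p = 0.00038 and 0.0010), and MAFG was at -0.13 and -0.07 without passing the test (adjusted p = 0.081 and 0.33). After removal of the trend on length and GC, MAFG was called lower with PRGL493 (-0.15, adjusted p = 0.0018). SESN2, a stress-induced sestrin that promotes loss of KEAP1, was at 73.6, 66.7 and 69.4 CPM in control, 33.5, 36.2 and 36.9 CPM in knockdown and 43.2, 44.7 and 40.4 CPM in PRGL493 libraries. SESN2 had the smallest adjusted p of the listed genes that fell under either treatment (-0.98, adjusted p = 4.8e-09, and -0.71, adjusted p = 1.8e-07).

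**Figure D4:**
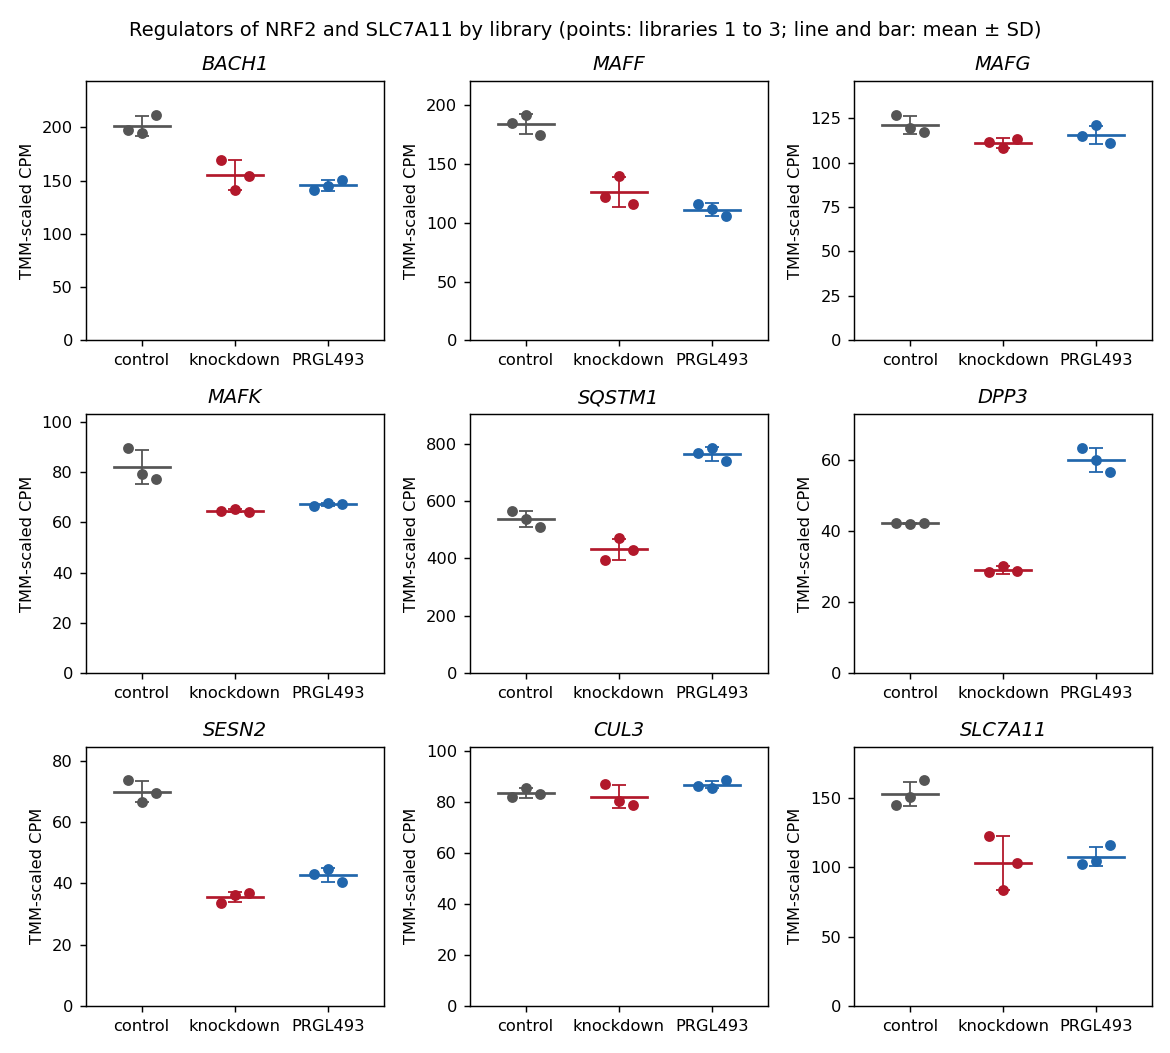
TMM-scaled CPM of 8 regulators of NRF2 and of the cystine transporter gene SLC7A11 in each library, by group, with points for libraries, a line for the mean and a bar for the SD (n = 3). DPP3 and SQSTM1 lie lowest in knockdown and highest in PRGL493 libraries, whereas BACH1, MAFF, MAFK, SESN2 and SLC7A11 lie below control in both treated groups.

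Enzymes that work beside the members moved in mixed ways. SLC7A11, the cystine importer that feeds glutathione synthesis and is induced by both NRF2 and ATF4, was at 145, 151 and 163 CPM in control, 123, 83.7 and 103 CPM in knockdown and 103, 105 and 116 CPM in PRGL493 libraries. It fell under both treatments (log2 ratio -0.57, SE 0.12, adjusted p = 0.0059, and -0.51, SE 0.12, adjusted p = 0.0073). MTHFD2, a mitochondrial folate enzyme, rose in knockdown cells and fell with PRGL493 (0.23, adjusted p = 0.0041, and -0.56, adjusted p = 7.3e-07), as did TXNIP, the inhibitor of thioredoxin (0.31, adjusted p = 7.8e-05, and -0.28, adjusted p = 0.00010).

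The other genes that the naming rule took from the lists are given by their differences. In knockdown cells PGLS, of the pentose phosphate route, rose by 0.44 (adjusted p = 0.00052), GPX8, a peroxidase of the endoplasmic reticulum, by 0.29 (adjusted p = 0.0013) and PRDX6, a peroxiredoxin, by 0.26 (adjusted p = 0.0017). PGLS and PRDX6 were highest in knockdown replicate 2, at 69.3 and 242 CPM against 53.7 to 63.0 and 215 to 216 CPM in its other libraries. AKR1C3, an aldo-keto reductase and NRF2 target, has close paralogs that may affect its count. It had at least 1084 counts per library, against at most 86 for AKR1C1 and 68 for AKR1C2. AKR1C3 fell by 0.58 in knockdown cells (adjusted p = 2.9e-05) and did not pass the test with PRGL493 (0.12, adjusted p = 0.20). With PRGL493 ALDH3A2, a fatty aldehyde dehydrogenase, rose by 0.78 (adjusted p = 4.5e-08). The haem synthesis enzymes ALAD and CPOX rose by 0.53 (adjusted p = 8.2e-07) and 0.50 (adjusted p = 4.9e-07). GGT1, which cleaves glutathione outside the cell and also has close paralogs, fell by 0.91 on the log2 scale with PRGL493 (adjusted p = 2.0e-07).

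The genes whose levels ran most like those of HMOX1 and SRXN1, the members with the largest differences from control, were ranked by Pearson's correlation of log2 CPM over the 9 libraries. For HMOX1 these were APEH (r = 0.993), MTFR1L (0.991), TGM2 (0.991) and ACTG1 (0.991). Each of them was lower in knockdown than in control cells, TGM2 for instance at 882 against 1362 CPM, and at 1528 CPM with PRGL493. For SRXN1 they were DNAJB1 (0.993), RNF167 (0.989), CPVL (0.987) and LRRC8E (0.985). The 9 points share 3 groups and their libraries.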

How the data were processed

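The deposited table holds estimated counts per gene symbol and library, as the authors deposited them, with no depth scaling. Fractions occurred in 10.5% of values, so all values were rounded first. The build is GRCh38, as named by the submitters' processing notes. Without the aligner, counter, annotation or strand setting, each not given in the sources used here, reads of overlapping genes cannot be separated. Genes passing edgeR's filterByExpr (14135) were scaled with TMM factors and fitted with glmQLFit (robust, edgeR 4.0.16, R 4.3.3) to all 9 libraries with group as the only term, with 6 residual degrees of freedom and a biological coefficient of variation of 6.38%. The design had assumed whole counts, and its test was kept. The script was tested on simulated data. Gene loci and transcript lengths are from GENCODE release 29, and promoter windows from RefSeq. No list was tested as a set.

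No 2 libraries within a group agreed to within sampling noise (chi-square per degree of freedom at least 4.03 for every pair), and each was used as a replicate. The members and the pathway lists were chosen with earlier results of these data known. Named genes are the 9 members, ACSL4, 7 regulators or transporters fixed by name, and in each treatment up to 4 called pathway genes per direction with the smallest adjusted p, of which 1 is not reported here. GSK3B is named besides, as a listed regulator called in opposite directions under the 2 treatments. For likeness, the 4 best-correlated genes of the 2 members with the largest difference from control are named. Alternatives covered normalization, the test, the low-count filter, the samples fitted, a replicate block, a length and GC trend, and leaving out each library.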

Additional observations from a re-analysis of the deposited data

How the results depend on the processing

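Of 513 recomputed member values (27 differences under 19 alternatives each) 474 kept direction and side of the threshold, 23 lost the call, 16 gained it and 0 reversed. The 171 values of knockdown against PRGL493 all kept their call. The number of members called in knockdown against control was 7, and 4 to 7 when a library was left out, lowest without knockdown replicate 3. With no library left out it was 5 to 8. In PRGL493 against control the number was 3, but 5 with library totals alone, 5 with only the 2 groups compared, 7 with the length and GC trend removed (6 higher and 1 lower) and 6 with the replicate block and that trend removed together (5 higher and 1 lower). The lower call was SRXN1 in both (-0.11). Leaving out a library gave 3 to 5, the 5 without knockdown replicate 2. The cause was not tested. MAFG reversed in knockdown against PRGL493, from -0.06 to 0.088 (adjusted p = 0.045) with the trend removed.

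Correlations of deviations between same-numbered libraries were weak, from -0.08 to 0.15, and over 0.1 in 2 of 9 pairs. Both of these were in knockdown against control, with 0.11, 0.15 and 0.06 for numbers 1, 2 and 3. Differently numbered libraries had -0.14 to 0.02 there, below every same-numbered pair. The main fit did not take the numbers as pairs. With the replicate block 5 members were called in knockdown against control (KEAP1 and ME1 were lost), 3 in PRGL493 against control and 9 in knockdown against PRGL493. Of all calls in knockdown against control 49.0% were higher, against 59.8% with library totals and 58.7% with upper-quartile factors. In knockdown against PRGL493 the share was 48.4%, and 58.4% with upper-quartile factors. Depth limits HMOX1 most, with 559 counts in the library where it had fewest.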
